A study of Mus musculus with 4 samples.

Results

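The survival motor neuron (SMN) complex is built from the SMN protein, encoded in mice by Smn1, and a set of tightly bound partners called Gemins. Its genes were taken here as the rows of the deposited expression table whose symbol was Smn1, Gemin2, Ddx20 (the gene of the Gemin3 helicase), Gemin4, Gemin5, Gemin6, Gemin7, Gemin8, or Strap (the gene of the Unr-interacting protein). All 9 were found among the 20027 genes of the table, and 8 of them passed a filter on low values that 11197 genes passed. Gemin8 stayed under that filter.

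In the cytoplasm, the complex takes Sm proteins from a methylating enzyme complex built around Prmt5, recognizes small nuclear RNAs (snRNAs) through Gemin5, and closes a ring of Sm proteins around each RNA, after which the particle returns to the nucleus as a building block of the spliceosome. SMN and Gemin2 hold the incoming Sm proteins, and the remaining Gemins stabilize the complex or work on the RNA. Too little SMN protein causes spinal muscular atrophy, a disease of motor neurons in which muscle and its connective cells are also studied.

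The RNA-Seq libraries were prepared without culture from Sca1+ cells of mouse hind limb muscle that lacked CD31, CD45, and Vcam1, the gate of fibroadipogenic progenitors (FAPs), which are the fibroblast-like cells between muscle fibers. There were 2 libraries labelled cKO and 2 labelled WT. The cKO libraries came from male Prx1-Cre;Bap1f/f mice, in which Cre, driven by a Prx1 enhancer that is active in limb bud mesenchyme, removes floxed Bap1, the gene of a nuclear deubiquitinase. The WT libraries came from male mice whose genotype is given as WT but whose titles name Prx1-Cre, whereas the study describes floxed controls, so it is not clear whether the controls carried the driver. All mice were on a C57BL/6 background by the labels (C57BL/6J in the study's methods) and, by the study, in the second week after birth. Nothing in the labels says how many animals went into a library, and p-values therefore measure only the spread between these samples. In the comparison of groups, that spread combined each gene's own with a trend shared by all genes. For ratios to Smn1, it was the shared trend alone and not the spread of each gene. The study examined SMN in these cells in asking how Bap1 in limb mesenchyme bears on the neuromuscular system. Set beside one another, the subunits show whether the genes of the complex moved together and whether any of them departed from Smn1.

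Values are RPKM, read numbers divided by transcript length and by the library's total (reads per kilobase per M reads), so levels of different genes can be set side by side per length. Depth, read from the steps between the lowest values, was about 90.4 and 41.4 M reads in the cKO libraries and 46.5 and 89.1 M reads in the WT libraries. Bap1 itself stood at 14.2 and 15.3 RPKM in cKO libraries, against 14.0 and 12.9 RPKM in WT libraries, and a value for the whole gene does not show whether the floxed exons were lost. The genotypes, and with them the direction of every difference below, therefore rest on the labels alone. For the counts of markers that follow, 35.9% of all tested genes were higher in cKO and 6.48% were lower (limma, adjusted p under 0.05). The 11 chondrocyte markers in the table, Col2a1 and Comp among them, summed to 2143 to 2501 RPKM in cKO libraries and 29.5 to 37.8 RPKM in WT libraries, and 11 of 11 were higher in cKO. Of 8 FAP markers, 6 were lower in cKO, with sums of 4853 to 5078 RPKM in cKO libraries and 6929 to 6996 RPKM in WT libraries. Of the most abundant of these, Gsn was lower in cKO, and Dcn was at 2973 and 3120 RPKM in cKO libraries, against 2594 and 2637 RPKM in WT libraries, and did not pass. Ly6a, which encodes the Sca1 of the gate, was named after its values were seen. It was lower in cKO, at 108.4 and 47.0 RPKM, against 216.4 and 119.7 RPKM in WT libraries (limma adjusted p = 0.0480). Myofiber markers were lower in cKO for 6 of 7 tested genes (sums of 22.1 to 23.6 RPKM in cKO libraries and 63.7 to 85.5 RPKM in WT libraries), and proliferation genes were higher for 6 of 8 (sums of 118.0 to 141.2 RPKM in cKO libraries and 93.7 to 95.1 RPKM in WT libraries). Schwann cell markers were higher for 3 of 4 tested genes, with sums of 21.6 to 34.6 RPKM in cKO libraries and 12.7 to 15.6 RPKM in WT libraries. Endothelial markers summed to 27.1 to 29.6 RPKM in cKO libraries and 27.1 to 28.8 RPKM in WT libraries, with 1 of 5 tested genes higher. That gene was Cdh5, at 6.45 and 11.3 RPKM in cKO libraries, against 1.43 and 3.68 RPKM in WT libraries. Pecam1, which encodes the CD31 of the gate, was at 0.537 and 1.63 RPKM in cKO libraries, against 1.67 and 3.12 RPKM in WT libraries, and did not pass. Both were named after their values were seen. Hematopoietic and muscle stem cell markers summed to at most 3.75 RPKM in any library, and Ptprc, which encodes the CD45 used to gate cells out, was at 0.195 to 0.254 RPKM in cKO libraries and 0.00164 to 0.111 RPKM in WT libraries. The part of these cell types and of proliferation in the results on the complex was not tested. In such bulk samples, fewer cells of a type and less RNA per cell cannot be told apart.

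The promoters of the members are shown first because the pattern of expression set apart Smn1 and Strap, which were higher in cKO, from Gemin2 and Gemin8, which were not. RefSeq windows on GRCm38.p6, from 250 bases before to 50 bases after the gene's start, were matched to all 9 members. Each is written 5′ to 3′ on the strand of the gene, and capitals mark the ETS core CCGGAA and the GC box GGGCGG, each on either strand. The windows are chr13:100124605-100124904 (Smn1), chr12:59013141-59013440 (Gemin2), chrX:166170204-166170503 (Gemin8), and chr6:137734832-137735131 (Strap), all on the plus strand.
Smn1: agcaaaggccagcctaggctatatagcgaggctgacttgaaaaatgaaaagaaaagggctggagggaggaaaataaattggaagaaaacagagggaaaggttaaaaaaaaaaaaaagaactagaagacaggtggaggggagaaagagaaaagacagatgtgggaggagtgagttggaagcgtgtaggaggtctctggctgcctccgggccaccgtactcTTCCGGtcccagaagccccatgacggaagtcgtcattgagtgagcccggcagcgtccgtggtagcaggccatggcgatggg
Gemin2: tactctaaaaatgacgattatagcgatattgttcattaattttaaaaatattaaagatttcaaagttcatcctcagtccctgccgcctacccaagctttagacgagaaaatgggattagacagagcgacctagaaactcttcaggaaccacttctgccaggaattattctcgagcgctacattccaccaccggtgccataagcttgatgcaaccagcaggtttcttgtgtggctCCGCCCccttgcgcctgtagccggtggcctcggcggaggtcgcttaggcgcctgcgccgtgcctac
Gemin8: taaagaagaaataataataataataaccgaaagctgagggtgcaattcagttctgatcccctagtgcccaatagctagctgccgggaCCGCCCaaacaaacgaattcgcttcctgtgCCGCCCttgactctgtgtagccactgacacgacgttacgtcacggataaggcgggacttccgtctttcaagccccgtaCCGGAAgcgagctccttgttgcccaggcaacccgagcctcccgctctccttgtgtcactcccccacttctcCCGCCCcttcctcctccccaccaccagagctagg
Strap: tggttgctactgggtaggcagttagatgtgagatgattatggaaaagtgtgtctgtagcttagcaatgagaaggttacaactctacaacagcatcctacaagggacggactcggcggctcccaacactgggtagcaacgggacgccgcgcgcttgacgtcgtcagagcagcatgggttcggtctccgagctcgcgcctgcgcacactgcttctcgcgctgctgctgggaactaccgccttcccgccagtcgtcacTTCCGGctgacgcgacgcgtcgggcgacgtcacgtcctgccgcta

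The ETS core stood at position -31 in the Smn1 window, counted from a start site at 0, at -55 in that of Gemin8, and at 5 in that of Strap. These were the 3 of 9 members with this motif, which 14.9% of 32851 RefSeq windows hold. The GC box was found in 6 of 9 members, all but Smn1, Gemin6, and Strap, against 35.7% of windows, and Gemin7 carried 4 of them. The NRF1 motif (GCGC, any base, then TGCGC) lay in the windows of Gemin2, at 31, and Strap, at -58, and in 4.6% of all windows. Gemin6 alone among the members held the palindromic cyclic AMP response element TGACGTCA, at -18, which 1.8% of windows hold, and CCAAT was found in Smn1 and Gemin8, against 37.4% of windows. AAGATGGCG, a YY1 motif, and CACGTG, an E-box, were found in 0 of 9 members and in 1.4% and 7.2% of windows. Neither the ETS core nor the NRF1 motif divided Smn1 and Strap from Gemin2 and Gemin8, and the GC box, present in Gemin2 and Gemin8 and not in Smn1 or Strap, was also in Ddx20 and Gemin5, which were higher in cKO. The member windows held between 11 (Smn1) and 34 (Ddx20) CpG pairs, against a median of 7 over all windows. The shares of all windows were not matched for this content. A match of letters is a description only.

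Smn1 and 3 of its partners, Strap, Ddx20, and Gemin5, were higher in cKO, 0 members were lower, and 4 tested members, Gemin2, Gemin4, Gemin6, and Gemin7, did not pass the test. Smn1 had the largest change of the complex, with a mean RPKM 2.36 times that of WT libraries. Gemin2 was the tested member with a negative change, and Gemin8, under the filter, also had its cKO values below its WT values. The 4 of 8 tested members called higher compare with 35.9% of all tested genes that were higher at the same limit, and 6.48% of all tested genes were lower (limma, adjusted p under 0.05). Groups did not overlap for 8 of 9 members, with cKO above WT for 7 and below it for Gemin8, while 56.8% of tested genes had cKO above WT without overlap and 15.5% had it below. The median tested gene was itself 0.27 log2 units higher in cKO, and values given as relative below have this shift taken off.

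**Figure D1:**
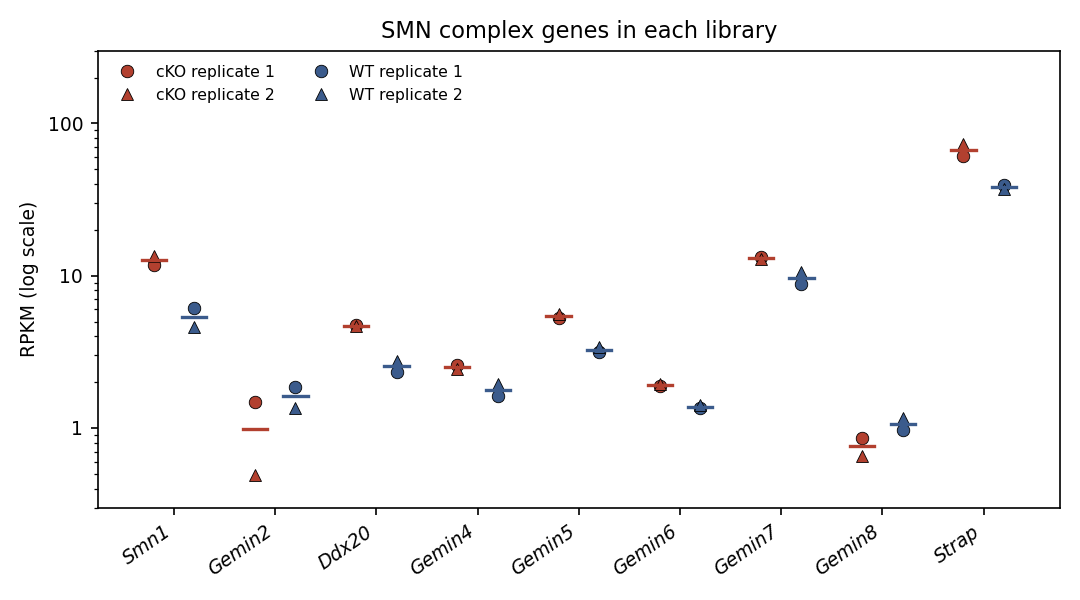
RPKM (log scale) of the 9 SMN complex genes in each library, cKO at the left and WT at the right of each gene, with circles for replicate 1, triangles for replicate 2, and bars for the mean of the 2 libraries. The cKO libraries lie above the WT libraries for 7 genes, Gemin8 shows the opposite order, and the groups of Gemin2 overlap, with cKO replicate 2 at 0.489 RPKM.

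Smn1 (NM_011420, chromosome 13, 100124852 to 100137690 on the plus strand of GRCm38, 9 exons) encodes the protein that gives the complex its name and forms its oligomeric core. Its level was 11.7 and 13.5 RPKM in cKO libraries, against 6.10 and 4.59 RPKM in WT libraries. Both cKO libraries were above both WT libraries, with means of 12.6 ± 1.29 RPKM in cKO and 5.35 ± 1.07 RPKM in WT (SD, n = 2 each). The log2 fold change of RPKM + 1 was 1.11 (SE 0.17, 95% interval 0.71 to 1.50, limma adjusted p = 0.00277), or 0.84 relative to the median gene. This placed Smn1 above 94.2% of tested genes in its change. At this limit the call held under all 15 settings tried, with the log2 fold change between 0.80 and 1.28.

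Gapdh and Actb are among the reference transcripts of the study's PCR measurements, and Smn1 was also read relative to each of them in the table. Gapdh, a glycolytic enzyme, was at 586.8 and 671.6 RPKM in cKO libraries, against 446.5 and 430.9 RPKM in WT libraries. Actb, cytoplasmic actin, was at 354.2 and 452.6 RPKM in cKO libraries, against 207.1 and 202.6 RPKM in WT libraries. Both references were therefore higher in cKO themselves (log2 fold change 0.52, adjusted p = 0.0213 for Gapdh; 0.96, adjusted p = 0.00301 for Actb). Smn1 amounted to 1.99% and 2.01% of Gapdh in cKO libraries, against 1.37% and 1.07% in WT libraries. The log2 change of the ratio was 0.59 (95% interval 0.12 to 1.06, limma adjusted p = 0.0250), with an error from the shared trend alone. By the same fit, 63.3% of all other tested genes were lower relative to Smn1. The median gene changed by -0.84 relative to Smn1, so Gapdh, at -0.59, stayed nearer to Smn1 than the median gene did. Relative to Actb, Smn1 was at 3.30% and 2.99% in cKO libraries, against 2.95% and 2.27% in WT libraries. Those values lay close together, and the log2 change of 0.14 had an interval of -0.31 to 0.59 (adjusted p = 0.568), so a change relative to Actb was not detected.

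Gemin2 (NM_025656, chromosome 12, 59013393 to 59028470, plus strand, 10 exons) encodes the partner that binds SMN most directly and wraps around the Sm proteins that are being loaded. It was at 1.48 and 0.489 RPKM in cKO libraries, against 1.86 and 1.36 RPKM in WT libraries. The groups overlapped, since cKO replicate 1 was above WT replicate 2, and the means were 0.983 ± 0.699 RPKM in cKO and 1.61 ± 0.357 RPKM in WT (SD, n = 2 each). The log2 fold change was -0.44 (95% interval -1.03 to 0.15, adjusted p = 0.202), or -0.70 relative to the median gene, and 8.17% of tested genes had a lower value. The low value of cKO replicate 2 rested on about 32 reads, if the smallest step is 1 read, against about 137 reads in WT replicate 1, the other library of lower depth. In the 2 deep libraries, about 212 reads in cKO replicate 1 stood against about 192 in WT replicate 2. Without cKO replicate 1 the log2 fold change was -0.80 (adjusted p = 0.0154) and Gemin2 would be called lower; without cKO replicate 2, it was -0.07.

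Gemin8 (NM_146238, chromosome X, 166170454 to 166190512, plus strand, 4 exons) encodes the subunit that connects SMN with the Gemin6 and Gemin7 pair. It was at 0.864 and 0.650 RPKM in cKO libraries, against 0.966 and 1.16 RPKM in WT libraries, which is about 145 and 50 reads in cKO and about 84 and 193 reads in WT. It was the least abundant member on average, and both cKO values lay below both WT values. A fit without the filter gave a log2 fold change of -0.23 (95% interval -0.58 to 0.11, adjusted p = 0.290), and 2.57% of the 20027 genes were called lower in that fit. The change of Gemin8 was therefore not larger than the spread that the model allows.

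Gemin6 and Gemin7 encode a pair of small proteins with an Sm-like fold that sit next to Gemin8. Gemin7 (NM_027189, chromosome 7, 19564949 to 19573343, minus strand) was, after Strap, the partner with the highest level, at 13.2 and 13.0 RPKM in cKO libraries, against 8.85 and 10.6 RPKM in WT libraries. Its groups did not overlap, but the log2 fold change of 0.40 (95% interval 0.07 to 0.73) had an adjusted p of 0.0554 and missed the limit, which it passed with a filter at 5 RPKM (0.0417), with robust eBayes (0.0493), and with a crossed replicate block chosen after seeing the data (0.0287). Gemin6 (NM_026053, chromosome 17, 80224441 to 80228497, plus strand) was at 1.88 and 1.94 RPKM in cKO libraries, against 1.34 and 1.41 RPKM in WT libraries. Replicates of Gemin6 differed little, and its log2 fold change was 0.29 (95% interval -0.06 to 0.64, adjusted p = 0.159), 0.03 above the median gene. Gemin6 overlaps Ttc39d in the annotation, and reads of the 2 genes may not have been told apart.

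Ddx20 encodes Gemin3, an RNA helicase of the DEAD-box family, and Gemin4 binds it. Ddx20 (NM_017397, chromosome 3, 105678270 to 105687574, minus strand, 11 exons) was at 4.76 and 4.64 RPKM in cKO libraries, against 2.32 and 2.76 RPKM in WT libraries. The groups were well apart, with a log2 fold change of 0.69 (95% interval 0.33 to 1.05, adjusted p = 0.0108), or 0.43 relative to the median gene. The call was lost without WT replicate 1 (adjusted p = 0.102) and, narrowly, with no filter (adjusted p = 0.0503). Gemin4 (NM_177367, chromosome 11, 76210571 to 76217664, minus strand) was at 2.59 and 2.44 RPKM in cKO libraries, against 1.61 and 1.94 RPKM in WT libraries. Although its groups did not overlap, the log2 fold change of 0.34 (95% interval -0.02 to 0.71, adjusted p = 0.117) did not pass, and it was 0.08 relative to the median gene. The annotation places LOC108167850 over part of Gemin4.

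Gemin5 recognizes the snRNA and brings it to the complex. Gemin5 (NM_172558, chromosome 11, 58121290 to 58168539, minus strand, 28 exons, overlapped by Gm33350) was at 5.24 and 5.59 RPKM in cKO libraries, against 3.15 and 3.38 RPKM in WT libraries. Both cKO libraries were higher, with a log2 fold change of 0.59 (95% interval 0.24 to 0.94, adjusted p = 0.0166), or 0.32 relative to the median gene. The call of Gemin5 was lost under each of 3 rescalings that center the median gene (adjusted p of 0.104, 0.117, and 0.0834), with no filter (0.0547), and without either WT library (0.132 without replicate 1 and 0.0816 without replicate 2).

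Strap encodes the Unr-interacting protein, a WD-repeat protein that joins the complex in the cytoplasm and also acts in TGF-β receptor signaling. Strap (NM_011499, chromosome 6, 137735078 to 137751932, plus strand, 10 exons) was the most abundant member, at 60.6 and 73.0 RPKM in cKO libraries, against 39.1 and 37.0 RPKM in WT libraries. The groups did not overlap, and the means were 66.8 ± 8.75 RPKM in cKO and 38.1 ± 1.50 RPKM in WT (SD, n = 2 each). Its log2 fold change was 0.79 (95% interval 0.48 to 1.10, adjusted p = 0.00369), or 0.52 relative to the median gene. It passed in 14 of 15 settings, with median-ratio scaling as the exception (adjusted p = 0.0521).

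Rescaling the libraries so that the median gene did not move lowered the log2 fold change of every tested member and reversed none. With median-ratio scaling, 2 of 8 tested members, Smn1 and Ddx20, were higher, as were 15.8% of all tested genes, and 13.6% of genes were lower. With quantile and with cyclic loess normalization, 3 of 8 were higher, namely Smn1, Strap, and Ddx20, compared with 15.9% and 16.8% of all tested genes, and 16.2% and 15.3% of genes were lower. Gemin2 had a log2 fold change of -0.61, -0.68, and -0.63 under median-ratio, quantile, and cyclic loess scaling, and it passed under none of them (adjusted p of 0.0903, 0.0832, and 0.0775). Gemin4, Gemin6, and Gemin7 were then within 0.16 log2 units of 0.

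**Figure D2:**
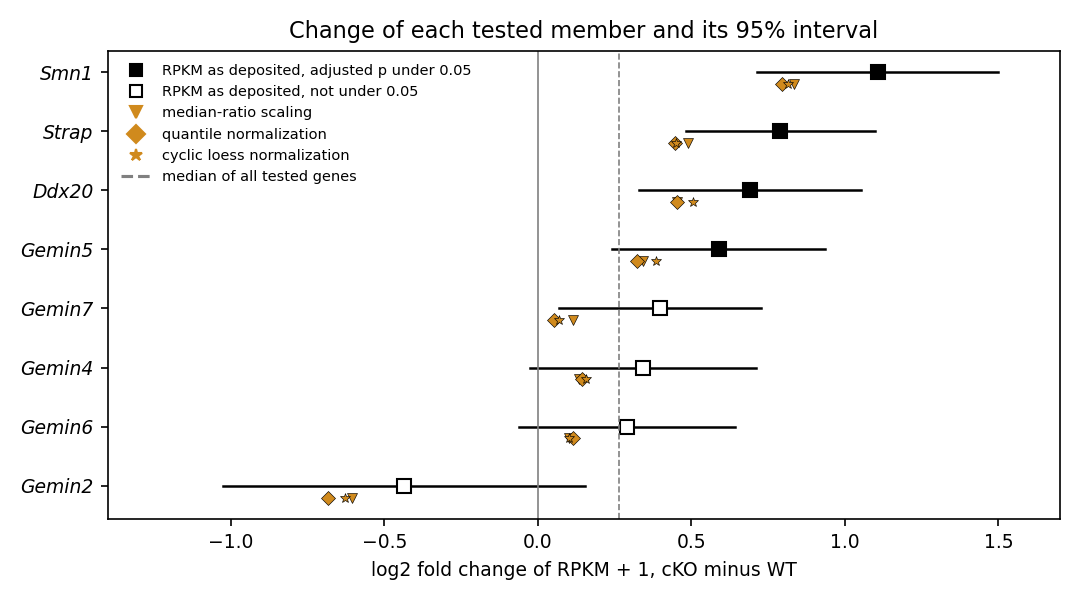
Log2 fold change of RPKM + 1, cKO minus WT, for the 8 tested members (squares, filled where the adjusted p was under 0.05) with 95% intervals as lines, and the same change after 3 rescalings (orange symbols). Smn1 is at the top with 1.11 and Gemin2 at the bottom with -0.44, and the dashed line marks the median tested gene at 0.27.

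The stoichiometry of the transcripts was described as the RPKM of each partner in percent of Smn1 in the same library. Gemin2 was at 12.6% and 3.62% of Smn1 in cKO libraries, against 30.5% and 29.6% in WT libraries. Gemin8 was at 7.39% and 4.81% in cKO libraries, against 15.8% and 25.4% in WT libraries. In these 2 partners the cKO libraries were far below the WT libraries, which for Gemin2 were nearly equal.

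The other partners were also mostly lower relative to Smn1 in cKO, by less. Gemin7 stood at 113.0% and 95.9% of Smn1 in cKO libraries, against 145.1% and 230.9% in WT libraries, so that Gemin7 transcripts exceeded those of Smn1 in WT and were about level with them in cKO. Gemin6 stood at 16.1% and 14.3% in cKO libraries, against 22.0% and 30.7% in WT libraries, and Gemin4 at 22.2% and 18.1% in cKO libraries, against 26.4% and 42.3% in WT libraries. Gemin5 stood at 44.8% and 41.3% in cKO libraries, against 51.6% and 73.6% in WT libraries. Strap stood at 518.7% and 540.4% in cKO libraries, against 641.7% and 806.3% in WT libraries. Only for Ddx20 among the 8 partners did the groups overlap, at 40.8% and 34.4% in cKO libraries, against 38.0% and 60.1% in WT libraries. In all partners but Gemin2, WT replicate 2, the library with the lowest Smn1, had the highest percentage.

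For the test, the log2 value of Smn1 was subtracted from that of each gene in each library. The error of each ratio was taken from a trend shared by all genes. The spread of a partner's own replicates, wide for Gemin2 in cKO, therefore did not enter its interval or p-value. Of 7 partners tested, 3 were lower relative to Smn1 in cKO, namely Gemin2 (log2 change -1.54, 95% interval -2.26 to -0.82, adjusted p = 1.71e-04), Gemin6 (-0.82, adjusted p = 0.0455), and Gemin7 (-0.71, adjusted p = 0.0337). Because Smn1 rose more than most genes, 63.3% of all other tested genes were lower relative to Smn1 by the same test and 1.65% were higher. The cKO ratios were below the WT ratios without overlap in 7 of 8 partners, as in 83% of tested genes, while 5.18% of genes had them above. The median gene changed by -0.84 relative to Smn1. Gemin6, Gemin4 (-0.76), and Gemin7 lay close to that median, Gemin5 (-0.52), Ddx20 (-0.42), and Strap (-0.32) lay nearer to Smn1, and Gemin2 was the tested partner farther below Smn1 than the median gene. Gemin8, in a fit without the filter, changed by -1.34 relative to Smn1 (adjusted p = 5.37e-04), a fit in which 79.4% of genes were lower. Its own change there was -0.23, and the rest was the rise of Smn1 by 1.11. A gene with no reads would also fall by about that rise, so the call does not show a change of Gemin8 itself.

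The Gemin2 ratio kept its call in 14 of 15 settings. It lost it without cKO replicate 2, where the log2 change was -1.08 (adjusted p = 0.288). Every ratio carries the error of Smn1 itself, and a test that took the difference of the 2 fitted changes with their own errors called 5 of 7 partners lower, Gemin4 and Gemin5 in addition, as it did 75.5% of all genes. The calls on Gemin4 and Gemin5 relative to Smn1 therefore depended on the test, Gemin2, Gemin6, and Gemin7 were called by both, and Ddx20 and Strap by neither. Over all settings the Gemin6 ratio passed in 6 of 15 and the Gemin7 ratio in 12 of 16, and the number of partners called ran between 0 and 5 when a library was left out, with 0 without cKO replicate 2 and 5 without WT replicate 1.

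**Figure D3:**
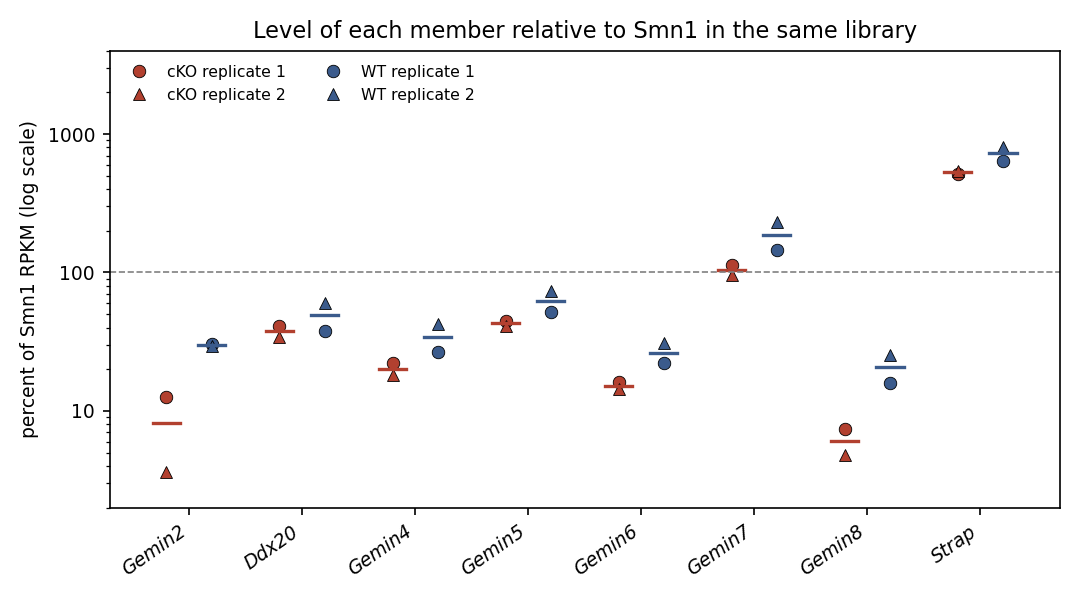
RPKM of each partner in percent of the Smn1 RPKM of the same library (log scale), cKO at the left and WT at the right of each gene, circles for replicate 1, triangles for replicate 2, and bars for the mean of the 2 libraries. The dashed line is parity with Smn1, which Gemin7 straddles in cKO, and the widest gaps between cKO and WT are those of Gemin2 and Gemin8.

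As a share of the summed RPKM of all 9 members, Smn1 made up 11.4% and 11.7% in cKO libraries, against 9.34% and 7.15% in WT libraries. Gemin2 made up 1.44% and 0.424% in cKO libraries, against 2.85% and 2.11% in WT libraries, and Gemin8 made up 0.844% and 0.564% in cKO libraries, against 1.48% and 1.81% in WT libraries. Strap held the greater part of the sum in every library, at 59.2% and 63.4% in cKO and 59.9% and 57.6% in WT, with overlapping groups. The summed RPKM of the 9 genes was 102.4 and 115.3 in cKO libraries, against 65.3 and 64.2 in WT libraries, and without Strap it was 41.7 and 42.2 in cKO libraries, against 26.2 and 27.2 in WT libraries. The summed RPKM of the complex did not overlap between groups and was higher in both cKO libraries, with smaller parts from Gemin2 and Gemin8.

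Among tested genes, the profiles over the 4 libraries nearest to that of Smn1 were those of Rab15, Timm9, Rps19bp1, Zpr1, and Asb6, with root mean square differences of 0.0281, 0.0289, 0.0309, 0.0334, and 0.0350 log2 units. Zpr1, a zinc finger protein known to bind SMN, was at 16.7 and 19.1 RPKM in cKO libraries, against 8.68 and 7.12 RPKM in WT libraries. Its order over the libraries was that of Smn1, which follows from its choice by likeness to Smn1. In the same order of likeness over 11196 genes, Strap ranked at 773, Ddx20 at 2137, Gemin5 at 2354, Gemin7 at 4485, Gemin4 at 4830, Gemin6 at 4859, and Gemin2 at 10304. With only 4 libraries, the likeness is a description.

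Genes that act before, with, and after the complex, and genes known as regulators, modifiers, or partners of SMN, were counted in 7 lists. These held 54 genes, all of them tested. Of these, 29 were higher in cKO and 0 lower, or 53.7%, compared with 35.9% of all tested genes. With a filter at 5 RPKM, 3203 of 7260 tested genes were higher, a larger share. The lists were not matched to all genes for level, and the log2 scale of RPKM + 1 understates changes of low genes. With median-ratio scaling 10 of 54 (18.5%) were higher, against 15.8% of all tested genes. With quantile and with cyclic loess scaling 13 of 54 (24.1%) were higher, against 15.9% and 16.8% of all tested genes, and 1, the Sm gene Snrpd2, was lower. The lists were chosen with earlier results of these data known, so these shares are a description. The counts by list that follow are without rescaling, where 35.9% of all tested genes were higher.

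Of the 8 Sm ring genes, whose proteins the complex loads, 6 were higher and the median log2 fold change was 0.55, against 0.27 over all genes. Snrpd1 was at 38.2 and 50.0 RPKM in cKO libraries, against 22.9 and 19.0 RPKM in WT libraries (log2 fold change 1.03, adjusted p = 0.00316), and Snrpd3 and Snrpe were also higher, by 0.71 and 0.60. Snrpd2 and Snrpg, which were named after their values were seen, had log2 fold changes of -0.05 and -0.03 and did not pass. In both of these genes the cKO and WT libraries overlapped.

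Of the 6 genes that methylate Sm proteins and hand them over, 4 were higher, with a median of 0.64. Wdr77, the partner of Prmt5, was at 16.4 and 19.3 RPKM in cKO libraries, against 6.79 and 5.12 RPKM in WT libraries, a log2 fold change of 1.45 (adjusted p = 0.00108). Riok1, an adaptor of Prmt5, and Prmt5 itself, the arginine methyltransferase, were higher by 0.75 and 0.73. Wdr77 was thus changed more than Smn1 in the fitted value, and the log2 change of its ratio to Smn1 was 0.34 (95% interval -0.27 to 0.95), which did not pass.

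Of 8 genes for snRNA export, capping, and import, 4 were higher, among them Ncbp1, a subunit of the nuclear cap-binding complex (1.06), Kpnb1, the import receptor importin β (0.81), and Tgs1, the enzyme that hypermethylates the snRNA cap (0.90). The median of these 8 genes was 0.49, and 35.9% of all tested genes were higher. Snupn, the adaptor that carries the finished particle to importin β, had a log2 fold change of -0.02 and was named after its values were seen. Of 7 genes of Cajal bodies and snRNA processing, 2 were higher, Nolc1, a coilin-binding phosphoprotein (0.76), and Toe1, an exonuclease that trims snRNA (0.54). That list had a median of 0.25, near the 0.27 of all genes, and so did the 10 genes of the U7 and LSm proteins (0.26), of which Lsm2, Lsm1, and Lsm4 were among 4 that were higher.

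Of 5 genes of the ubiquitin system linked to SMN protein, 3 were higher, compared with 35.9% of all tested genes. Their median log2 fold change was 0.47, against 0.27 over all genes. Uchl1, a ubiquitin hydrolase, was at 17.0 and 20.1 RPKM in cKO libraries, against 11.6 and 6.24 RPKM in WT libraries (log2 fold change 1.03, adjusted p = 0.0142). Mib1 and Itch, both ubiquitin ligases, were higher by 0.47 and 0.50. Bap1 and Usp9x, deubiquitinases of the same list, had log2 fold changes of 0.13 and 0.11 and did not pass (adjusted p = 0.443 and 0.467).

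**Figure D4:**
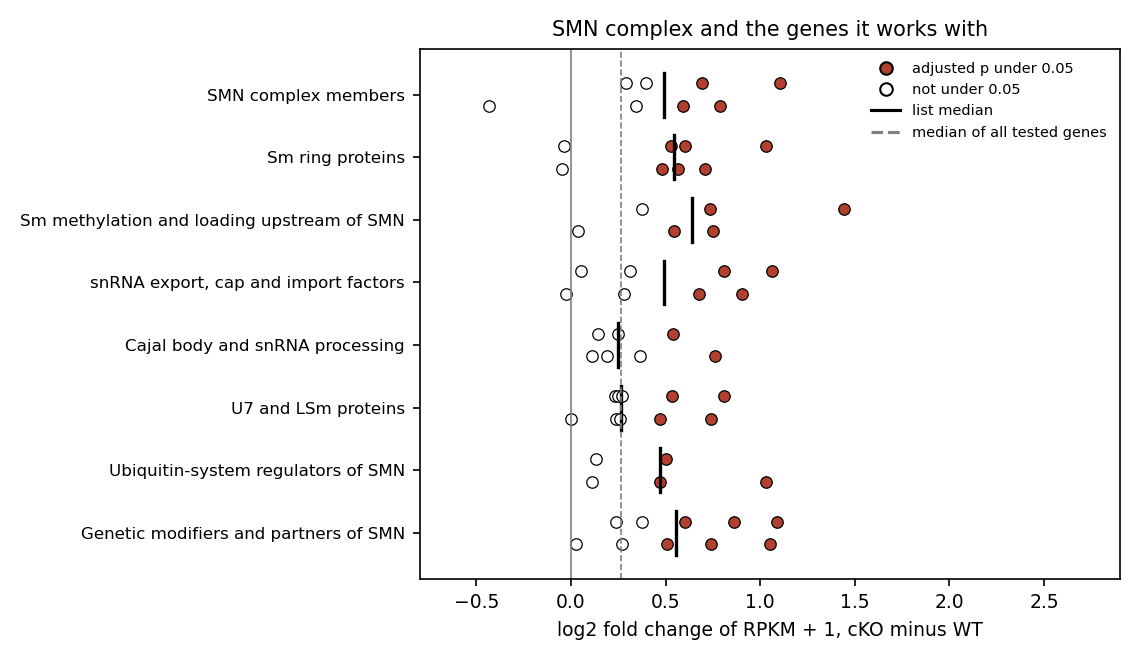
Log2 fold change of RPKM + 1, cKO minus WT, of each tested gene of the SMN complex and of 7 lists of genes of its pathway or otherwise linked to SMN. Symbols are filled where the adjusted p was under 0.05, with black bars at list medians and a dashed line at the median tested gene. The Sm ring, Sm methylation, and modifier lists have medians of 0.55, 0.64, and 0.56, and the Cajal body and U7 and LSm lists lie at the dashed line.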

How the data were processed

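Expression was deposited by the authors as RPKM in 1 table with 4 columns, all of which were used (0 columns of values left out). TopHat2 (2.0.9 is the version listed), edgeR, bedtools, and both mm10 and mm9 are named by the submitters' processing notes, with no order. Which annotation and counting rule were applied, and whether strand was used, is not given in the sources used here. RPKM depends on the library's composition, so abundant genes that change move all others. Library depth was computed from the value of genes with no reads, with 1 read taken as 2.5 times that value; 72.9% of 1035 low values lay on whole steps within 0.1 of a step, too few to recover reads, so no count model was used and read numbers are approximate and cover counting error only.

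Groups were compared in limma (version 3.58.1, R 4.3.3; lmFit and eBayes with a trend) on log2(RPKM + 1), a scale that understates changes of low genes, cKO minus WT, two-sided, over the 11197 genes that reached 1 RPKM in at least 2 libraries, with Benjamini-Hochberg adjustment over all of them and a limit of 0.05. Exact permutation of 2 and 2 libraries allows no two-sided p below 0.333 and was not used. Ratios to Smn1 were fitted with the same model after subtraction within each library. In that fit the error of each gene came from a trend shared by all genes alone, so its own replicate spread did not enter. The scripts were tested on simulated data. The members and gene lists were chosen with earlier results of these data known. The genes named were the 9 members, Gapdh, Actb, up to 3 genes of each pathway list with the smallest p in the list's direction and any called the other way, up to 2 genes of each cell list with the highest mean, and the 5 genes nearest to Smn1 in profile (symbols of predicted genes, Riken clones, and LOC loci left out). Bap1, Ptprc, and Usp9x were named outside this rule, and others are said to have been chosen after their values were seen. Gene positions are from the GENCODE annotation of GRCm38 and promoters from RefSeq (GRCm38.p6), neither of which need be the authors' build. Alternatives were pseudocounts of 0.1 and 0.5, no filter or one at 5 RPKM, 3 scalings, eBayes without trend or robust, a replicate block, leaving out each library, and the study's limit of 1e-05. Figures were drawn with matplotlib (version 3.10.9).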

Additional observations from a re-analysis of the deposited data

How the results depend on the processing

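Of the 8 members that passed the filter, none was reversed in direction under any setting in which it was fitted; Gemin8 was fitted once, with no filter, and Gemin2, Ddx20, Gemin4, and Gemin6 were not fitted with the filter at 5 RPKM. The 4 members called higher became 2 with no filter and 2 with median-ratio scaling, 5 with robust eBayes, 0 at an adjusted p limit of 1e-05, and 2 to 4 when 1 library was left out, with the 2 reached without WT replicate 1; the 0 called lower became 0 to 1 (Gemin2, without cKO replicate 1). The log2 fold change of Smn1 was 0.93 to 1.28 with 1 library left out. The 3 partners called lower relative to Smn1 became 1 with a filter at 5 RPKM, where 3 members other than Smn1 were tested, and 0 to 5 with 1 library left out: 5 without WT replicate 1, 1 without WT replicate 2, 1 without cKO replicate 1, and 0 without cKO replicate 2. With the replicate number as a block the count was 1, but samples with the same number did not deviate together (correlation of -0.30), so the numbers are not taken to pair the samples. A crossed block and a difference of estimates were chosen after seeing the data. The crossed block joined the libraries of lower depth (WT replicate 1 and cKO replicate 2) and the deeper ones (WT replicate 2 and cKO replicate 1). That block gave 6 partners and 5 members higher, and the difference of the 2 estimates gave 5 partners. The cause of these changes was not tested. Over all genes, the 4016 higher and 726 lower became 1769 and 1527 with median-ratio scaling, 1777 and 1818 with quantile normalization, 1885 and 1710 with cyclic loess, 2436 and 472 without WT replicate 1, 2397 and 364 without WT replicate 2, 3611 and 1221 without cKO replicate 1, and 5 and 0 at 1e-05. Lone samples left in a group were assumed to vary like the other group. Depth limits Gemin2 and Gemin8 most, with about 32 and 50 reads in cKO replicate 2.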

Other observations

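Genes known as modifiers or partners of SMN function, which include actin-binding and RNA-binding proteins, were higher in cKO for 6 of 10 and lower for 0. Their median log2 fold change was 0.56, against 0.27 over all tested genes, of which 35.9% were higher. This list, too, was chosen with earlier results of these data known. Zpr1 was higher by 1.09 log2 units (adjusted p = 0.00200). Pfn2, a profilin that regulates actin assembly, was at 12.8 and 12.3 RPKM in cKO libraries, against 6.23 and 4.93 RPKM in WT libraries (log2 fold change 1.05, limma adjusted p = 0.00240). Syncrip, an RNA-binding protein, was at 44.9 and 52.9 RPKM in cKO libraries, against 27.4 and 30.1 RPKM in WT libraries (0.74, limma adjusted p = 0.00455). Pls3, the actin-bundling plastin known as a protective modifier of spinal muscular atrophy in people, was named after its values were seen and was at 47.7 and 46.5 RPKM in cKO libraries, against 31.8 and 33.8 RPKM in WT libraries (0.51, limma adjusted p = 0.0107). Coro1c and Chp1, also named after their values were seen, had log2 fold changes of 0.27 and 0.24, near the median gene, and did not pass.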
